A study of Mus musculus with 18 samples.

Results

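Microexons are exons of 3 to 27 nucleotides (nt), and the table of splicing events held 2029 of them with enough reads in all 18 libraries. They were chosen by annotation and coverage only: an exon event of any type, a length of 3 to 27 nt, and a coverage score of VLOW or better (at least 10 reads) in every library. Before the coverage rule there were 3701 exon events of this length, among 661941 events of all types, and 368707 events of all types passed the same rule. The 2029 microexons lay in 1626 genes, of which 283 held 2 or more.

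The RNA came from mouse embryonic fibroblasts (genotype Collagen-OKSM, M2rtta+), in which doxycycline switches on the reprogramming factors OCT4, KLF4, SOX2 and MYC, and each of the 9 groups had 2 libraries. The knockdown dataset (12 libraries) held day 0 cells that were not infected (NI) and day 12 cells, kept in doxycycline after lentiviral infection, that carried a scrambled control (shSCR), shCPSF3#1, shCPSF3#2, shUL1#1 or shUL1#2, where CPSF3 is the cleavage and polyadenylation endonuclease and UL1 is the RNA-binding protein hnRNP UL1. The overexpression dataset (6 libraries) held NI cells of day 0 and, of day 12, cells with a retrovirus for the empty vector (Empty) or for T7-TIA1, the tagged RNA-binding protein TIA1. Infected cells were sorted for GFP at day 2, grown on irradiated feeder cells and harvested with trypsin, so infection, doxycycline, sorting and feeders all separate day 12 from day 0 and cannot be told apart in these comparisons. In the time field of the labels, shUL1#2 stands at day 0 and the overexpression NI cells at day 12, while the titles give day 12 and day 0, the days used here. Nothing in the labels says that the 2 libraries of a group came from separate cultures or embryos, so the p-values measure the spread between libraries, which may be technical.

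Because a microexon is shorter than the stretch over which exons are usually recognised, its inclusion depends strongly on auxiliary proteins that bind the neighbouring introns. In neurons the SR-related protein SRRM4 is the best known of these activators, and PTBP1 is a widespread repressor of neural exons. Many microexons keep the reading frame and add or remove only a few amino acids, often at the surface of proteins that work in the cytoskeleton, in vesicle transport or in cell adhesion. Inclusion was measured as PSI, the percent of transcripts in which the exon is spliced in.

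The sequences of 13 annotated microexons whose inclusion changed between day 0 and day 12 are shown first, chosen because the results below turn on them, in the sense of the mRNA (mm10 coordinates, transcripts of the GENCODE M21 annotation of the same assembly). The microexon is in capitals, between the 12 last bases of the exon before it and the 12 first bases of the exon after it. The first 6 had lower inclusion at day 12 than at day 0 in 1 or both datasets.
Pcnt, 21 nt, chr10:76403624-76403644, minus strand: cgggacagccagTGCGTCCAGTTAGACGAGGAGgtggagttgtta
Afdn, 21 nt, chr17:13848355-13848375, plus strand: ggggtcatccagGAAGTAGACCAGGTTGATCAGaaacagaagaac
Baz2b, 27 nt, chr2:59933412-59933438, minus strand: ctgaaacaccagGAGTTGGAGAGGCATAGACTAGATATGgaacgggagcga
Ctnnd1, 18 nt, chr2:84612532-84612549, minus strand: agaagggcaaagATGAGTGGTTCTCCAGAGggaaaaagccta
Mark3, 27 nt, chr12:111651958-111651984, plus strand: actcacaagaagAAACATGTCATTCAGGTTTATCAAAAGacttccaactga
Mia2, 27 nt, chr12:59146336-59146362, plus strand: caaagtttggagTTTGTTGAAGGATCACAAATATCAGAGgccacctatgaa

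The next 7 had higher inclusion at day 12, and all 13 are annotated as coding exons with a length that is a multiple of 3.
Senp6, 21 nt, chr9:80098886-80098906, plus strand: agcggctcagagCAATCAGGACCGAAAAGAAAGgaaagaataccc
Immt, 15 nt, chr6:71866726-71866740, plus strand: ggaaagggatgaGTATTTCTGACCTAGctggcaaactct
Abi1, 15 nt, chr2:22963214-22963228, minus strand: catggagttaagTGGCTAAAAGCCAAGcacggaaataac
Suco, 21 nt, chr1:161845560-161845580, minus strand: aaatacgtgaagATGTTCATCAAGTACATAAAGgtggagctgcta
Myo18a, 9 nt, chr11:77822666-77822674, plus strand: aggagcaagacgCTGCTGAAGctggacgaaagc
Ptk2, 9 nt, chr15:73211987-73211995, minus strand: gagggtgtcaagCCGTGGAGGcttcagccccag
Myo6, 27 nt, chr9:80293527-80293553, plus strand: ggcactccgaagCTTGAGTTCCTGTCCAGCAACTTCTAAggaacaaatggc

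Most microexons of the table were skipped in these cells. The mean PSI over the 18 libraries was at most 1 for 1443 of the 2029 (71.1%), between 1 and 10 for 169, between 10 and 90 for 124 (6.11%), between 90 and 99 for 63, and above 99 for 230. Longer exons, from 28 nt to under 300 nt and under the same coverage rule, were 101543 in number and stood the other way round, with 75145 above 99 and 8935 (8.80%) at most 1. Short microexons were little used: of the 438 with 3 nt, 93.2% had a mean PSI of at most 1, as had 105 of the 109 with 4 nt, while the median length was 9 nt in that class, 20.5 nt between 10 and 90, and 24 nt above 99. GENCODE M21 holds no exon at the position of 1118 of the 2029 (55.1%), 600 (29.6%) are annotated as coding, 250 overlap another annotated exon, and the other 61 are in untranslated, partly coding, non-coding or terminal exons. Of the class at most 1, only 12.1% are annotated as coding, against 72.6% between 10 and 90 and 92.6% above 99.

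**Figure D1:**
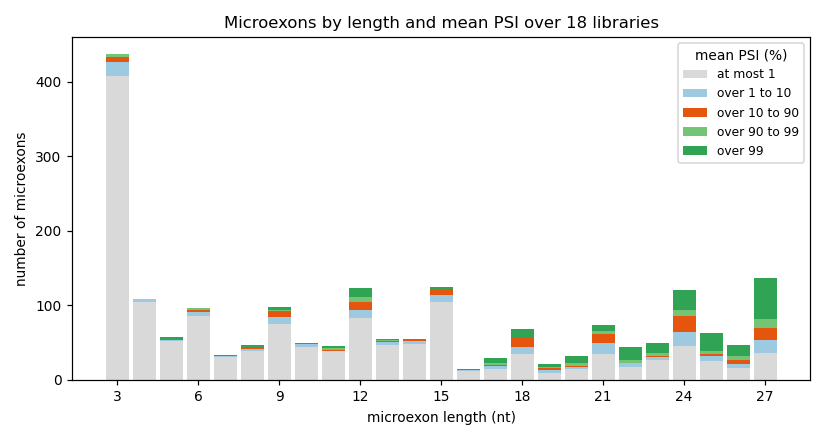
Number of microexons (vertical axis) of each length in nt (horizontal axis), with colours for the class of mean PSI over 18 libraries. The bar of 3 nt is the tallest, with 438 microexons of which 408 had a mean PSI of at most 1, and the classes above 90 lie mainly at 17 nt and more.

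Lengths that keep the reading frame were most frequent among microexons with intermediate inclusion. A length divisible by 3 was found in 101 of 124 microexons with a mean PSI between 10 and 90 (81.5%), in 68.0% of those between 1 and 10, in 62.7% of those at most 1, and in 53.0% of those above 99. Among the longer exons the shares were 48.9% between 10 and 90 and 39.3% above 99. The class at most 1 holds 408 microexons of 3 nt, whose length is divisible by 3 by definition. The introns before and after microexons had median lengths of 1216 and 1322 nt, and those around longer exons 1610 and 1529 nt. These are descriptions of the annotation, with no test.

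**Figure D2:**
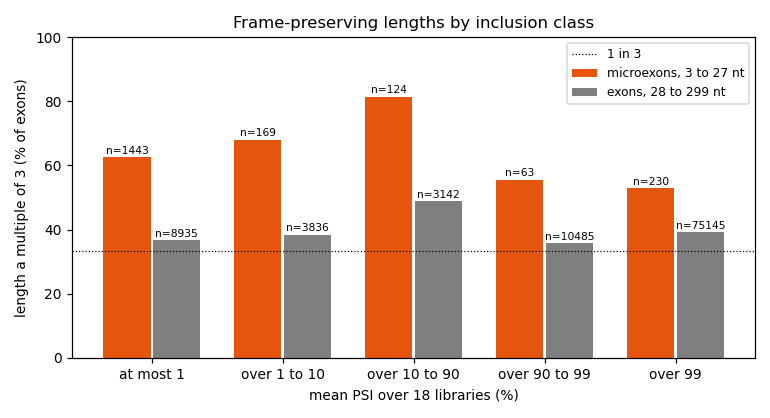
Percent of exons with a length divisible by 3 (vertical axis) by class of mean PSI over 18 libraries (horizontal axis), for microexons and for longer exons of under 300 nt, with the number of exons above each bar and a dotted line at 1 in 3. The microexon bar is highest between 10 and 90, at 81.5% of 124.

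The group means placed more microexons at intermediate inclusion at day 12 than at day 0. In NI cells 110 (knockdown) and 111 (overexpression) had a mean PSI between 10 and 90, against 135 in shSCR and 132 in Empty. The knockdown groups held 121 (shCPSF3#1), 121 (shCPSF3#2), 123 (shUL1#1) and 124 (shUL1#2), and T7-TIA1 held 125. Inclusion was below 5 in all 18 libraries for 1473 microexons and above 95 in all for 245, and the remaining 311 (15.3%) are called variable here. The median PSI of these 311 was 11.0 in the NI cells of the knockdown dataset, 12.0 in those of the overexpression dataset, 15.7 in shSCR and 14.2 in Empty, and lay between 13.7 and 14.5 in the 5 remaining day 12 groups. Their mean PSI differed little, at 34.16 in NI and 34.59 in shSCR, and at 34.23 in NI and 34.13 in Empty.

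Reads behind the microexons summed to between 1196391 and 1371354 per library, and a variable microexon had a median of 137 to 184 reads in a library. Its 2 libraries of a group differed by a median of 1.99 to 2.71 PSI points, and 1 in 10 differed by at least 7.64 to 11.75 points. Beyond counting error the spread was less even: the chi-square of the reads of both libraries per degree of freedom was lowest for NI of the knockdown dataset, at 2.27, and highest for shCPSF3#1, at 10.8. The targeted transcripts were checked in scaled CPM, the deposited expression measure. Cpsf3 was at 38.6 to 77.1 in the 4 shCPSF3 libraries and 86.7 and 118 in shSCR. Hnrnpul1 was at 38.7 to 85.8 in the 4 shUL1 libraries and 156 and 185 in shSCR. Tia1 was at 613 and 469 in T7-TIA1 and 85.6 and 77.0 in Empty. In none of the 3 did the groups overlap. The labelled cell type was checked on 15 fibroblast markers (Col1a1, Thy1, Pdgfra and others): 14 were in the knockdown table, with a sum of 22091 and 25963 scaled CPM in NI, 15809 and 12945 in shSCR, and 23771 to 43212 in the 8 knockdown libraries. In the overexpression dataset 13 were listed, with sums of 23609 and 54694 in NI, 11882 and 14271 in Empty, and 10521 and 11405 in T7-TIA1. Of 12 epithelial markers only 3 were in the knockdown table (Krt8, Krt18 and Krt19), summing to 50 to 62 in NI, 627 and 365 in shSCR and 46 to 276 in the knockdown libraries. In the overexpression dataset 2 were listed, summing to 34.5 and 25.3 in NI, 56.5 and 39.1 in Empty and 112 and 52.6 in T7-TIA1. Of 12 neuron markers 2 were in the knockdown table (Tubb3 and Stmn2), summing to 73.1 and 72.3 in NI and 113 and 232 in shSCR. In the overexpression dataset 3 were listed, summing to 102 and 144 in NI, 210 and 188 in Empty and 209 and 175 in T7-TIA1. Of 7 muscle markers 1 was in the knockdown table (Des), at 54.1 and 54.8 in NI and 13.8 and 15.4 in shSCR, and 0 in the overexpression table. Of 11 pluripotency markers none was in either table, so those were not analysed here. In bulk samples fewer cells of a type and less RNA per cell cannot be told apart.

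The comparison of day 12 with day 0 asked which microexons were switched while fibroblasts were being reprogrammed. Inclusion of microexons in Pcnt, Afdn, Clasp2, Ctnnd1 and Mark3, genes of the centrosome, of cell junctions and of microtubules, was lower in shSCR, with differences of -27.1 to -73.9 PSI points, and that of microexons in Senp6, Immt, Abi1 and Suco rose by 26.0 to 40.5 points. Each event was tested with limma on the log2 odds of inclusion (log2 of inclusion over exclusion reads, 1 added to each), with p-values adjusted over all events tested. Of the 2029 microexons, 526 had at least 10 reads of their rarer form over the knockdown libraries and entered the test, and the others were nearly always in or nearly always out. In shSCR against NI, 47 of the 526 passed at an adjusted p under 0.05, 31 with higher and 16 with lower inclusion, beside a background of 5.05% of all 153525 events tested (7748) and 7.21% of the 36411 longer exons tested. A change of at least 10 points was also met by 25 (16 higher, 9 lower), where the background over all events was 0.96% higher and 0.527% lower. The median difference over the 526 was 0.145 points.

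Pericentrin (Pcnt) is a scaffold protein of the centrosome. Its 21 nt microexon was included in every informative read of NI cells, with a PSI of 100 and 100, and had 31.9 and 20.4 in shSCR. The 120 reads of the 2 NI libraries allow a skipped form of up to 2.50%, for counting error only. No NI library came near the shSCR libraries, and the log2 odds fell by 7.46 ± 0.80 (SE; adjusted p = 0.000567, limma). In the overexpression dataset it was again at 100 and 100 in NI and at 41.4 and 37.7 in Empty (adjusted p = 0.000175, limma).

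Afadin (Afdn) ties the nectin adhesion molecules to actin. Its 21 nt microexon was at 79.7 and 84.9 in NI and at 29.9 and 14.8 in shSCR, a fall with no overlap between the groups (adjusted p = 0.0276, limma). In the overexpression dataset the values were 85.1 and 80.3 in NI and 23.4 and 29.6 in Empty (adjusted p = 0.00137, limma). The shSCR call was lost with any 1 of its 4 NI and shSCR libraries left out, at an adjusted p of 0.108 and 0.167 without NI replicate 1 and 2 and of 0.0549 and 0.129 without shSCR replicate 1 and 2.

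Clasp2 encodes a protein that binds growing microtubule ends. Its microexon of only 3 nt (chr9:113884913-113884915, plus strand), which has no annotated exon in GENCODE M21 and so no sequence to show here, was at 97.4 and 99.5 in NI and at 63.3 and 51.4 in shSCR. Both NI libraries were above both shSCR libraries (log2 odds lower by 5.43 ± 0.80, adjusted p = 0.00485, limma). The overexpression dataset gave 98.7 and 98.9 in NI and 55.2 and 62.0 in Empty, the same order of the groups (adjusted p = 0.000437, limma). Clasp1, the paralog, also has a 3 nt microexon (chr1:118546186-118546188, plus strand), which did not pass the test and lay between 84.8 and 97.5 in the 18 libraries.

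Ctnnd1 encodes p120-catenin, which binds the tails of cadherins. Its 18 nt microexon was read 1212 times or more in each library and was at 64.6 and 61.0 in NI and 31.3 and 34.8 in shSCR (adjusted p = 0.000487, limma). Mark3, a kinase of microtubule-associated proteins, had a 27 nt microexon at 87.2 and 85.1 in NI and at 63.2 and 54.9 in shSCR (adjusted p = 0.0146, limma). These groups did not overlap either. The Mark3 call was lost without any 1 of the 4 libraries, at an adjusted p of 0.0857, 0.0741, 0.0512 and 0.0995 without NI replicate 1, NI replicate 2, shSCR replicate 1 and shSCR replicate 2.

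Of the 9 microexons that fell by at least 10 points, the other 4 were those of Mia2, a protein of endoplasmic reticulum exit sites, Med23, a Mediator subunit, Mrpl24, a protein of the mitochondrial ribosome, and Flna, the actin cross-linker filamin A. Mia2 (27 nt) was at 28.1 and 34.1 in NI and 11.0 and 12.2 in shSCR. Med23 (18 nt) was at 33.2 and 28.8 in NI and 15.7 and 14.9 in shSCR. In each of the 4 the NI and shSCR libraries did not overlap. The 26 nt microexon of Mrpl24 lies in an untranslated region and its length is not a multiple of 3; it was at 61.2 and 55.6 in NI and 40.2 and 38.5 in shSCR. Flna (24 nt) had the smallest fall, by 11.1 points, from 67.5 and 69.2 to 58.3 and 56.1. The call was lost for Mia2 without NI replicate 2 (adjusted p = 0.0594, limma), for Mrpl24 without NI replicate 1 (adjusted p = 0.0590, limma), and for Med23 without any of the 4, at 0.0956 to 0.140.

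Among the microexons that rose, Senp6, which encodes a protease that removes SUMO chains, had the largest difference, 40.5 points. Its 21 nt microexon was at 41.9 and 40.1 in NI and at 82.0 and 81.1 in shSCR, with log2 odds higher by 2.65 ± 0.22 (adjusted p = 5.02e-05, limma). Immt encodes mitofilin, which shapes the inner membrane of mitochondria. Its 15 nt microexon was at 61.1 and 59.99 in NI and 86.9 and 89.8 in shSCR (adjusted p = 0.00839, limma). Suco encodes a protein with a SUN domain, and its 21 nt microexon was at 55.6 and 51.7 in NI and 77.8 and 81.5 in shSCR (adjusted p = 0.00129, limma). In these 3 genes the shSCR libraries lay above the NI libraries by more than the spread of either group. The Immt call was lost without NI replicate 2 (adjusted p = 0.0664, limma) and without shSCR replicate 2 (adjusted p = 0.0625, limma).

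Further microexons that rose were those of Abi1, Myo6, Ptk2, Myo18a and Mtmr1. Abi1, a subunit of the WAVE complex that starts actin branches, had a 15 nt microexon at 10.2 and 10.7 in NI and at 37.4 and 36.2 in shSCR (adjusted p = 0.000651, limma). Myo6, the myosin that moves towards the minus end of actin filaments, had a 27 nt microexon at 0 and 0 in NI, where 93 reads allow an included form of up to 3.23%, and at 14.7 and 22.6 in shSCR (adjusted p = 0.0120, limma). Ptk2, which encodes focal adhesion kinase, had a 9 nt microexon at 12.7 and 13.3 in NI and at 27.7 and 32.7 in shSCR (adjusted p = 0.00737, limma). Each of the 3 was higher in both shSCR libraries than in any NI library. The 9 nt microexon of the unconventional myosin Myo18a was at 4.27 and 0 in NI and at 16.9 and 27.97 in shSCR (adjusted p = 0.00568, limma). Mtmr1, a phosphoinositide phosphatase, had a 24 nt microexon at 6.05 and 10.4 in NI and at 29.6 and 26.9 in shSCR (adjusted p = 0.0137, limma). Here too the groups did not overlap. Calls were lost without NI replicate 2 for Myo6 (adjusted p = 0.134, limma) and Myo18a (adjusted p = 0.112, limma), and without shSCR replicate 2 for Myo6 (adjusted p = 0.0735, limma) and Ptk2 (adjusted p = 0.0676, limma). That of Mtmr1 was lost without NI replicate 1, shSCR replicate 1 or shSCR replicate 2, at 0.0878, 0.0970 and 0.0568.

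The number of calls rested on all 4 libraries of this comparison. Without NI replicate 1 or 2 the test passed 27 or 20 microexons, and without shSCR replicate 1 or 2 it passed 23 or 27, in place of 47. With at least 10 points it passed 15 or 12 without NI replicate 1 or 2 and 16 or 15 without shSCR replicate 1 or 2, in place of 25. The calls of Senp6, Abi1, Suco, Pcnt, Clasp2 and Ctnnd1 were kept with each of the 12 libraries left out in turn, but in an unweighted limma test of PSI those of Abi1 (adjusted p = 0.0598), Pcnt (0.0772) and Clasp2 (0.109) were lost.

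**Figure D3:**
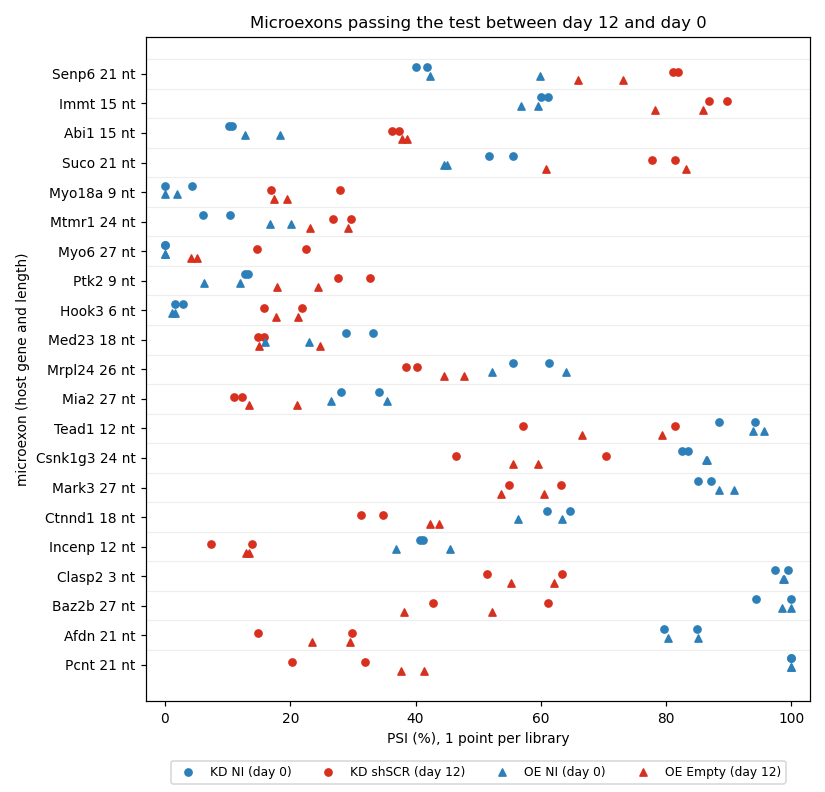
PSI in percent (horizontal axis) of the microexons named for the day 12 comparisons (vertical axis, host gene and length), with 1 point per library: circles for the knockdown and triangles for the overexpression dataset, blue for NI at day 0 and red for shSCR or Empty at day 12. Pcnt stands at 100 in all 4 NI libraries and at 20.4 to 41.4 in the 4 day 12 controls, and Senp6, at the top, moves the other way.

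The overexpression dataset gave a second comparison of day 12 with day 0 that shares no library with the first. In Empty against NI, 17 of 428 microexons tested passed (6 higher, 11 lower), beside a background of 0.533% of 118542 events and 1.42% of the 28405 longer exons tested. Of the 17, 13 changed by at least 10 points (4 higher, 9 lower), where the background over all events was 0.129% higher and 0.129% lower. The 9 that fell were Pcnt, Afdn, Clasp2, Mark3, Baz2b, Csnk1g3, Incenp, Tead1 and Kifc3, and the 4 that rose were Immt, Abi1, Hook3 and Myo18a. Baz2b, a bromodomain protein of chromatin, had a 27 nt microexon at 98.5 and 100 in NI and at 38.1 and 52.3 in Empty (adjusted p = 0.00146, limma). Hook3, an adaptor that links cargo to dynein, had a microexon of 6 nt (chr8:26045906-26045911, minus strand, no annotated exon) at 1.60 and 1.05 in NI and at 21.2 and 17.7 in Empty (adjusted p = 0.00198, limma). Incenp, a member of the chromosomal passenger complex, had a 12 nt microexon at 45.5 and 36.9 in NI and at 12.9 and 13.5 in Empty (adjusted p = 0.00970, limma). In none of these 3 did the libraries of the groups overlap. Kif3a, Nmt2, Suco and Dnm2 were higher in Empty by 22.1 to 31.3 points and did not pass, at an adjusted p of 0.0643 (Dnm2, limma) to 0.167 (Suco).

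Tead1, a transcription factor of the Hippo pathway, had a 12 nt microexon at 93.8 and 95.6 in NI and at 66.5 and 79.3 in Empty (adjusted p = 0.0242, limma). Abi1 was at 12.8 and 18.4 in NI and at 37.8 and 38.6 in Empty (adjusted p = 0.0414, limma). Immt was at 56.8 and 59.5 in NI and at 85.9 and 78.2 in Empty (adjusted p = 0.0306, limma). The groups did not overlap in these 3, but their calls were the least stable: that of Abi1 was lost without any 1 of the 6 libraries, at an adjusted p of 0.0649 (without NI replicate 2) to 0.223 (without Empty replicate 1). Those of Immt and Tead1 were lost in 5 of 6 such fits, at up to 0.171 without NI replicate 1 for Immt and up to 0.174 without Empty replicate 1 for Tead1. Myo18a was lost without either NI or either Empty library (0.0757 to 0.168), and Incenp without NI replicate 1 (0.0736), Empty replicate 1 (0.0966) or Empty replicate 2 (0.0532). Without 1 library the count was 9 to 11 in place of 17: 11 and 10 without NI replicate 1 and 2, 9 and 10 without Empty replicate 1 and 2, and 10 without either T7-TIA1 library, and with at least 10 points it was 8 without Empty replicate 1, in place of 13. Pcnt, Afdn, Baz2b, Clasp2, Mark3, Csnk1g3 and Hook3 were kept in all 6, but an unweighted limma test of PSI passed 0 microexons in this comparison, with Pcnt at an adjusted p of 0.0803.

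Both datasets moved the microexons in like directions. Of 420 microexons tested in both, Pearson's r between the PSI differences was 0.815, a description across microexons, which are not independent replicates. Of 30 that changed by at least 10 points and passed in 1 or both datasets, 29 had the same sign in both. The calls shared by both were 10, all in the same direction, which is 21.3% of the 47 shSCR calls and 58.8% of the 17 Empty calls. The same shares were not computed over all events or longer exons, so this agreement is not shown to be particular to microexons. A direct test of the difference between both changes, in a fit of all 18 libraries, passed 0 of 613 microexons (64 at an unadjusted p under 0.05; limma), beside a background of 0.0209% of 177089 events. The smallest p-values were those of Bcat1 (adjusted p = 0.163, limma), Fam92a (adjusted p = 0.174, limma) and Ccnl1 (adjusted p = 0.180, limma). Ccnl1, cyclin L1, had a 14 nt untranslated microexon at 2.36 and 2.57 in NI and 11.6 and 12.1 in shSCR, and at 3.31 and 8.18 in NI and 3.44 and 5.53 in Empty.

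**Figure D4:**
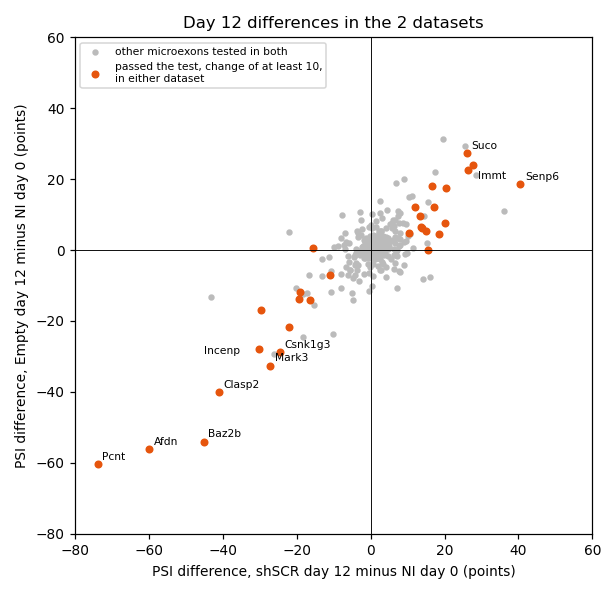
Difference in PSI points between day 12 and day 0 in the overexpression dataset (Empty minus NI, vertical axis) against the knockdown dataset (shSCR minus NI, horizontal axis) for the 420 microexons tested in both. Orange points passed the test with a change of at least 10 in 1 or both datasets, and 29 of these 30 lie in the lower left or upper right quadrant.

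Most microexons that passed had a length divisible by 3. In shSCR against NI, 40 of the 47 (85.1%) had a length divisible by 3, beside 349 of the 526 tested (66.3%), and of the longer exons 42.3% of those that passed and 39.0% of those tested. Of all microexons with a mean PSI between 10 and 90 it was 81.5%, and the calls were not compared within classes of PSI. In Empty against NI it was 17 of 17, beside 69.4% of the 428 tested. Such a length bears on a reading frame only in coding exons, which were 30 of the 47 (63.8%) and 13 of the 17 (76.5%) that passed, beside 52.5% and 56.5% of those tested. The exceptions among the 25 that passed in shSCR with at least 10 points were Mrpl24 (26 nt) and Kctd9 (14 nt), both in untranslated regions. By the study's own rule, a difference of at least 10 between means with a gap of at least 5 between libraries and no test, 47 of 2029 microexons changed in shSCR (2.32%, 24 higher and 23 lower) beside 1.15% of all 368707 events and 1.33% of longer exons, and 38 in Empty (1.87%, 17 higher and 21 lower) beside 0.602% of all events and 0.788% of longer exons.

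The knockdown of CPSF3 was compared with shSCR at day 12 to ask which microexons depended on this factor during reprogramming. With both shRNAs averaged, inclusion rose in Mia2, AU019823 and Med23 by 14.3 to 21.9 points and fell in Immt, Ptk2 and Suco by 16.4 to 20.7 points. The test passed 15 of 526 microexons (6 higher, 9 lower), beside a background of 1.53% of all events and 2.97% of longer exons, and 6 of the 15 changed by at least 10 points, where the background was 0.209% higher and 0.322% lower. Of these 6, all but AU019823 had also passed in shSCR against NI, with the opposite sign; the comparisons share the shSCR libraries, so each value is given by library. With the same 10 points and gap of 5 required of each shRNA against shSCR, in the same direction and with no test, 12 changed (6 higher, 6 lower), beside 0.336% of all events.

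Mia2 was at 35.0 and 40.6 with shCPSF3#1 and at 33.5 and 24.7 with shCPSF3#2, against 11.0 and 12.2 in shSCR. All 4 knockdown libraries were above both shSCR libraries and lay around the NI values of 28.1 and 34.1 (log2 odds against shSCR higher by 1.90 ± 0.26, adjusted p = 0.00357, limma). Ptk2 was at 8.32 and 10.04 with shCPSF3#1 and at 14.2 and 14.7 with shCPSF3#2, all below the shSCR values of 27.7 and 32.7 (adjusted p = 0.00532, limma). Immt was at 60.6 and 65.5 with shCPSF3#1, and at 62.7 and 82.0 with shCPSF3#2, whose second library came nearest to shSCR at 86.9 and 89.8 (adjusted p = 0.0308, limma). Suco was at 59.8 to 68.9 in the 4 libraries, below 77.8 and 81.5 in shSCR (adjusted p = 0.0147, limma). AU019823, whose 27 nt microexon is untranslated, was at 35.2 to 49.0, above 26.9 and 22.5 in shSCR and 24.6 and 24.6 in NI (adjusted p = 0.0493, limma). Med23 was at 36.7 and 42.7 with shCPSF3#1 but at 18.9 and 19.9 with shCPSF3#2, close to 15.7 and 14.9 in shSCR (adjusted p = 0.0443, limma), so the call came mainly from 1 shRNA. Among the microexons that met the untested rule with each shRNA, Gk, which encodes glycerol kinase, had the largest rise, 25.6 points. It went from 47.9 and 28.5 in shSCR to 59.1 to 70.5 (adjusted p = 0.162, limma). The rise of the kinesin Kif21a was 21.6 points (adjusted p = 0.0806, limma), and neither Gk nor Kif21a passed. Microexons outside that rule could differ more in the mean, as Baz2b did, at 52.0 in shSCR and 82.0 with shCPSF3. Tle1 and Mrpl24 were higher and Gfra1, Igdcc4, Myo6 and Trappc13 lower by 11.0 to 16.1 points without passing.

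The calls of AU019823 and Med23 were lost with any 1 of the 12 libraries left out, at up to 0.317 and 0.270 without shSCR replicate 2. That of Ptk2 was lost without shSCR replicate 2 (adjusted p = 0.0729, limma) and that of Suco without shSCR replicate 1 (0.0602) or 2 (0.151). That of Immt was lost without shSCR replicate 1 (0.124) or 2 (0.218) and without shCPSF3#1 replicate 1 (0.0832) or 2 (0.0651), and that of Mia2 was kept in all 12 but lost in the unweighted test of PSI (adjusted p = 0.0764, limma). Without shSCR replicate 1 or 2 the test passed 4 or 7 microexons in place of 15, and 2 or 3 in place of 6 with at least 10 points, which was 3 with only the groups compared. A further pair of smaller changes was chosen after the values were seen. The 24 nt microexon of Zfr, a zinc finger RNA-binding protein, was at 10.2 and 9.64 in NI, 1.25 and 2.59 in shSCR and 7.66 to 13.9 in the 4 shCPSF3 libraries (adjusted p = 0.00789, limma). The 15 nt microexon of the kinase Csnk1d was at 0.74 and 0.49 in NI, 4.62 and 2.49 in shSCR and 0.27 to 0.86 with shCPSF3 (adjusted p = 0.00402, limma).

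The knockdown of UL1 was compared with shSCR in the same way. Inclusion fell by 14.8 to 28.5 points in Senp6, Suco, Myo6, Ptk2 and Arhgef40, and rose by 18.3 points in Mia2. Senp6, Suco, Myo6, Ptk2 and Mia2 had also passed in shSCR against NI, with the opposite sign. That comparison, the shCPSF3 comparison and this one share the shSCR libraries, so their calls are not independent. The test passed 11 of 526 microexons (1 higher, 10 lower), beside a background of 0.688% of all events and 1.58% of longer exons, and 6 of the 11 (1 higher, 5 lower) changed by at least 10 points, where the background was 0.109% higher and 0.145% lower. By the 10 points and gap of 5 in each shRNA, 12 changed (1 higher, 11 lower), beside 0.28% of all events.

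Senp6 was at 52.9 and 50.6 with shUL1#1 and at 53.7 and 54.9 with shUL1#2, between the 41.9 and 40.1 of NI and the 82.0 and 81.1 of shSCR (log2 odds against shSCR lower by 1.95 ± 0.19, adjusted p = 0.00114, limma). With shCPSF3 it was at 67.0 to 76.8, which did not pass against shSCR (adjusted p = 0.0612, limma). No library of the other groups of the knockdown dataset fell in the range of the 4 shUL1 libraries. Myo6 was at 0.87 to 2.06 in the 4 shUL1 libraries, against 14.7 and 22.6 in shSCR (adjusted p = 0.0139, limma). Arhgef40 was at 17.8 to 20.3 in the 4 shUL1 libraries, below 38.1 and 30.5 in shSCR and near 20.5 and 21.0 in NI (adjusted p = 0.0330, limma). Suco was at 58.8 to 66.1 (adjusted p = 0.0121, limma), Ptk2 at 11.3 to 19.8 (adjusted p = 0.0301, limma), and Mia2 at 24.7 to 36.1 (adjusted p = 0.0120, limma), in each case with no overlap with shSCR. Ocrl, a phosphoinositide phosphatase, at 19.9 to 33.9 against 40.1 and 49.7 in shSCR (adjusted p = 0.104, limma), Immt (0.0847) and Igdcc4 (0.0805) were lower by 14.1 to 17.4 points without passing.

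The Senp6 call was kept with each of the 12 libraries left out. Without shSCR replicate 1 or 2 the others were lost: Mia2 at 0.112 or 0.0750, Suco at 0.0568 or 0.120, Myo6 at 0.0626 or 0.132, Ptk2 at 0.111 or 0.222 and Arhgef40 at 0.332 or 0.0650 (adjusted p, limma). Myo6 was also lost without shUL1#2 replicate 1 (0.0523), Ptk2 without shUL1#1 replicate 1 (0.0696) or either shUL1#2 library (0.0798 and 0.0627), and Arhgef40 without any 1 of the 4 shUL1 libraries (0.0661 to 0.0837). The count was 2 or 6 without shSCR replicate 1 or 2 and 5 without shUL1#2 replicate 1, in place of 11, and with at least 10 points it was 1, 2 and 3 in place of 6. The summed fibroblast markers given above were higher in all 8 knockdown libraries (23771 to 43212) than in shSCR (15809 and 12945), and the 3 keratins were lower in all 8 (46 to 276) than in shSCR (627 and 365), here as in the shCPSF3 comparison. Their part in these results was not tested.

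Pcnt, Afdn and Clasp2, the calls with the largest falls from NI to shSCR, differed between the libraries of a knockdown. Pcnt was at 82.9 and 64.3 with shCPSF3#1, 61.8 and 28.9 with shCPSF3#2, 64.8 and 39.4 with shUL1#1, and 66.7 and 27.4 with shUL1#2, between the 100 of NI and the 31.9 and 20.4 of shSCR. The first library of each knockdown lay above both shSCR libraries, while the second of shCPSF3#2 and of shUL1#2 lay between them. In the fit without a replicate block neither factor passed against shSCR (adjusted p = 0.180 for shCPSF3 and 0.437 for shUL1, limma). For Pcnt, and for Afdn below, replicate 1 was above replicate 2 in each day 12 group of this dataset. Each knockdown library was also above the shSCR library of its number, though the labels do not say whether a number marks a shared culture. With a replicate block, Pcnt passed for shCPSF3 (adjusted p = 0.0140, limma) but not for shUL1 (0.0904). Afdn was at 77.5, 59.5, 57.3 and 18.6 in the 4 shCPSF3 libraries and at 50.8, 25.1, 57.9 and 33.7 in the 4 shUL1 libraries, against 29.9 and 14.8 in shSCR, with an overlap for both factors (adjusted p = 0.248 and 0.520, limma). Clasp2 was at 67.7 to 95.6 with shCPSF3 and 62.3 to 88.5 with shUL1, against 63.3 and 51.4 in shSCR, with an overlap only for shUL1, and did not pass either (adjusted p = 0.128 and 0.557, limma). Abi1 was at 38.8 to 54.5 with shCPSF3 and at 37.15 or more with shUL1, against 37.4 and 36.2 in shSCR (adjusted p = 0.311 and 0.534, limma), and all 8 libraries were far above the 10.2 and 10.7 of NI.

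A direct comparison of both factors passed no microexon. With shCPSF3 against shUL1, 0 of 526 passed (49 at an unadjusted p under 0.05; limma), and over all 153525 events the background was 0%. The smallest p belonged to Senp6, with a PSI 18.5 points higher in shCPSF3 than in shUL1 (adjusted p = 0.110, limma), followed by Gsdmd (adjusted p = 0.429, limma) and Slc38a10 (adjusted p = 0.489, limma). The libraries of both factors did not overlap in Senp6, at 67.0 to 76.8 and 50.6 to 54.9.

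**Figure D5:**
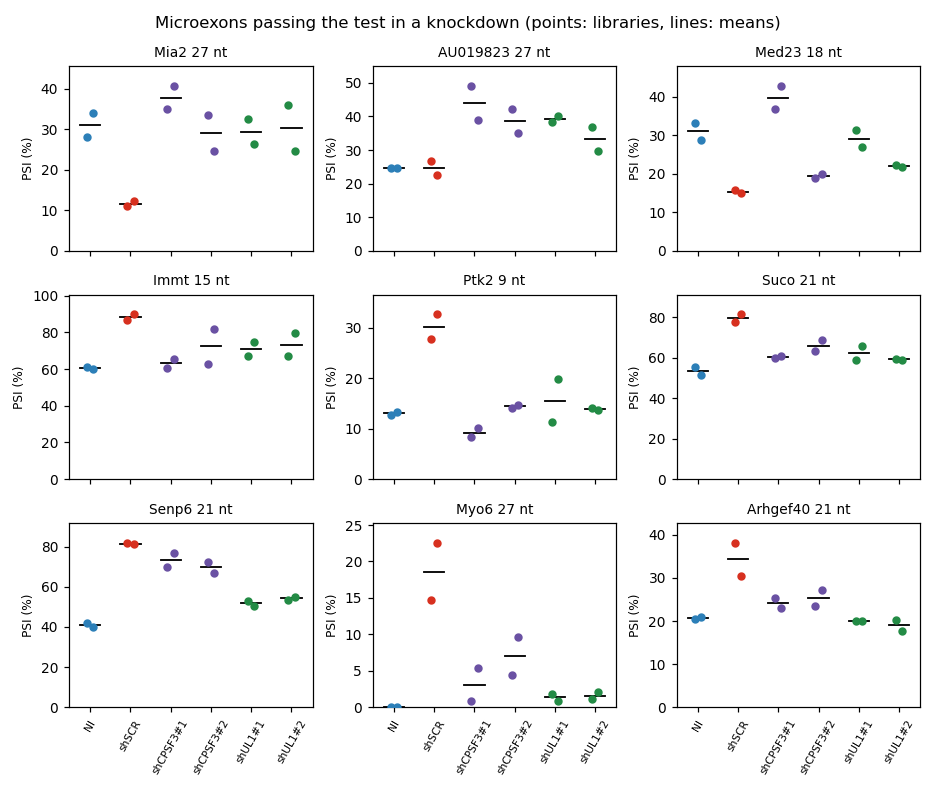
PSI in percent (vertical axis, from 0, with a scale for each panel) in the 6 groups of the knockdown dataset (horizontal axis) for the 9 microexons that passed the test with a change of at least 10 points in a knockdown, with 1 point per library and a line at each group mean. Senp6 stands at 50.6 to 54.9 in the shUL1 libraries, below shCPSF3 and shSCR, and Mia2 stands lowest in shSCR.

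Overexpression of T7-TIA1 was compared with Empty. Only 1 of 428 microexons passed (47 at an unadjusted p under 0.05, limma), beside a background of 0.0278% of all events and 0.0493% of longer exons. Of all events tested, 0.00506% passed with a rise and 0.0101% with a fall of at least 10 points. The microexon that passed was the 12 nt one of Ano1, a chloride channel opened by calcium. It was at 97.2 and 98.3 in Empty and at 82.3 and 87.4 in T7-TIA1, and at 96.3 or more in the other 14 libraries. Its sequence is shown as the single call of this comparison.
Ano1, 12 nt, chr7:144619475-144619486, minus strand: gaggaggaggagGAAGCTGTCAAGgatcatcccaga
The difference was 12.9 points (log2 odds lower by 2.86 ± 0.31, adjusted p = 0.0260, limma), and the groups did not overlap, but the call was lost without any 1 of the 6 libraries, at 0.0989 without either NI library, 0.126 and 0.169 without Empty replicate 1 and 2, and 0.330 and 0.127 without T7-TIA1 replicate 1 and 2.

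The 10 points and gap of 5, with no test, were met by 15 microexons between T7-TIA1 and Empty (7 higher, 8 lower), beside 0.232% of all events. The largest was the 9 nt microexon of Mtss1l, a membrane-bending protein that binds actin, at 56.3 and 48.4 in Empty and at 0 and 22.01 in T7-TIA1; it did not pass the limma test. Among those that were higher, the 18 nt microexon of glycerol kinase (Gk) had the largest difference, 23.1 points, at 32.9 and 41.7 in Empty and 50.7 and 70.2 in T7-TIA1 (adjusted p = 0.997, limma). The 27 nt microexon of Trappc9, a subunit of a tethering complex for vesicles, was at 16.2 and 19.1 in Empty and at 36.9 and 33.7 in T7-TIA1 (adjusted p = 0.584, limma). Neither passed, and in NI Gk was at 56.98 and 76.1 and Trappc9 at 24.8 and 14.6. The 10 nt microexon of Hsdl1 was at 0 and 6.96 in Empty and at 16.3 and 16.8 in T7-TIA1 (adjusted p = 0.789, limma). The 27 nt microexon of the kinesin Kif1a was at 10.2 and 10.2 in Empty and at 25.9 and 17.6 in T7-TIA1 (adjusted p = 0.586, limma). That these 4 were higher in both T7-TIA1 libraries than in either Empty library follows from the gap of 5 by which they were picked. Senp6 was at 73.1 and 66.0 in Empty and at 50.5 and 52.0 in T7-TIA1, with an adjusted p of 0.696 (limma). The 21 nt microexon of Kif21a was at 40.3 and 33.0 in Empty and at 7.85 and 15.3 in T7-TIA1 (adjusted p = 0.599, limma). None of these passed, and the separation of their T7-TIA1 and Empty libraries was set by the rule. The others of the 15, of which Col4a5, Ctnnd1 and Heatr5a were higher and Nav2, Slit2, Rgs12 and Macf1 lower, differed by 10.1 to 16.7 points and did not pass either. In T7-TIA1, Pcnt was at 46.8 and 43.0, Clasp2 at 70.8 and 58.2, and Afdn at 35.4 and 27.03, all below their NI libraries. Ctnnd1 was at 55.0 and 52.1, between 42.3 and 43.7 in Empty and 63.4 and 56.4 in NI. T7-TIA1 was not tested against NI.

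Several microexons of genes listed for neural microexons were skipped. The 18 nt microexon of Src, which makes the neuronal form of this kinase, was between 0.43 and 5.65 in the 18 libraries and did not pass any test. The 12 nt microexon of Kdm1a, a histone demethylase, was at 0 in all 18 libraries, where 5877 reads allow up to 0.0510%. An 8 nt microexon of the endocytic scaffold Itsn1 was also at 0 in all 18, where 8580 reads allow up to 0.0350%. Whether this 8 nt event is the Itsn1 form used in neurons was not examined. Other microexons of the genes listed for neural microexons were used in these cells: a 3 nt microexon of Itsn1 lay between 37.2 and 64.2, a 12 nt microexon of the receptor phosphatase Ptprs between 94.3 and 96.9, and 24 nt microexons of the clathrin adaptor Picalm and of the transcription factor Mef2a between 35.1 and 64.6 and between 7.11 and 28.2. That of Mef2a was at 12.6 and 7.11 in NI and at 21.9 and 24.3 in shSCR (adjusted p = 0.00861, limma).

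Pairs of microexons in 1 gene differed in use even between the same flanking exons, and were chosen after their values were seen. Abi1 and Dnm2, which encodes the endocytic GTPase dynamin 2, each hold a second annotated microexon of the same length and with the same 12 bases on both sides. The 4 sequences are shown so that they can be compared.
Abi1, used, chr2:22963214-22963228, minus strand: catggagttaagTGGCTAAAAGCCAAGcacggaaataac
Abi1, not used, chr2:22971027-22971041, minus strand: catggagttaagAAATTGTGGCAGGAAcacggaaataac
Dnm2, used, chr9:21490658-21490669, plus strand: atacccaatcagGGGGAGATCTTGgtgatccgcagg
Dnm2, not used, chr9:21489910-21489921, plus strand: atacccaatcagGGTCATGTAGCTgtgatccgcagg
The first of each pair was at 10.2 to 54.5 (Abi1) and at 36.5 to 71.3 (Dnm2) over the 18 libraries. The second was at 0 in all 18, where 8850 reads (Abi1) and 4673 reads (Dnm2) allow up to 0.0339% and 0.0642%. In Abi1 the microexons agree at 2 of 15 positions and in Dnm2 at 4 of 12.

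Paralogs with similar microexons were compared in the same way. The 24 nt microexons of Cpeb2 and Cpeb4, regulators of translation that bind mRNA, agree at 21 of 24 positions, and the 27 nt microexons of the kinesins Kif1a and Kif1b at 20 of 27; these pairs were chosen after their values were seen.
Cpeb2, chr5:43268869-43268892, plus strand: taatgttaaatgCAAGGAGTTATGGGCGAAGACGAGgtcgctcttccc
Cpeb4, chr11:31918801-31918824, plus strand: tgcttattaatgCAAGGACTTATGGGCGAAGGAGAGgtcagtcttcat
Kif1a, chr1:93034546-93034572, minus strand: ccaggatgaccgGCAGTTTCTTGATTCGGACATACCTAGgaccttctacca
Kif1b, chr4:149195473-149195499, minus strand: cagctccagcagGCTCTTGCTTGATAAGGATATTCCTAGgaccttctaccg
Cpeb2 was at 2.57 to 27.4 and Cpeb4 at 0 to 1.74 over the 18 libraries, so no Cpeb4 library reached the lowest of Cpeb2. Kif1a was at 1.17 to 25.9 and Kif1b at 0 to 2.21, with an overlap only at the lowest Kif1a library. The 24 nt microexon of Clasp1 (chr1:118541675-118541698) was at 5.06 to 20.7, and its counterpart in Clasp2 (chr9:113878750-113878773), which agrees at 17 of 24 positions, was at 0 to 1.06. In the remaining pairs both members were nearly skipped: 27 nt microexons of Ptprf and Ptprs were at 0 to 4.58 and 0 to 2.57, and 27 nt microexons of Clasp1 and Clasp2 at 0 to 4.61 and 0.

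Host genes were grouped by function to see where the calls fell. Over all tested microexons 8.94% passed in shSCR and 3.97% in Empty, so that with the few tested in a list a count of 0 is close to that share. Cytoskeleton and motor genes held 69 microexons, of which 25 were tested in the knockdown dataset: 4 rose in shSCR (Myo6, Abi1, Sptan1 and Myo18a), 1 fell (Clasp2), and the median difference was 0.335 points. In Empty 2 of 24 rose (Abi1 and Myo18a) and 1 fell (Clasp2). Genes of vesicle transport held 37 microexons and genes of adhesion and receptors 33, and of the 17 and 15 tested none passed in shSCR, nor did any of the 15 and 14 tested in Empty. These counts hold for the lists as fixed, which do not include Afdn, Ctnnd1 and Ptk2, known from junctions and focal adhesions, or Mia2, known from secretory transport, all of which passed in shSCR. Transcription and chromatin genes held 24, with Mef2a higher in shSCR and Tead1 lower in Empty, and signalling genes held 36, with Git1 higher and Mark3 lower in shSCR and Mark3 lower in Empty. Git1, a scaffold with activity towards Arf GTPases, moved from 0.93 and 1.47 to 5.35 and 4.65. Of 10 in translation and RNA genes only 2 could be tested and neither passed. In the knockdowns 1 member of these lists passed, Myo6 with shUL1, and in T7-TIA1 none passed.

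The level of the host gene was compared with the change of its microexon. Of the 47 host genes of the shSCR calls, 9 were higher and 12 lower in expression at an adjusted p under 0.05 (44.7%; limma on log2(scaled CPM + 1)), beside 44.5% of all 9435 genes. Myo6 and Myo18a were themselves higher in shSCR, by 1.499 ± 0.091 and 1.31 ± 0.15 on that log2 scale (adjusted p = 3.89e-05 and 0.000337, limma), and Flna was lower by 2.39 ± 0.26 (adjusted p = 0.000291, limma). Senp6 and Ctnnd1 differed by -0.11 ± 0.13 and -0.004 ± 0.157 and did not pass. In Empty 10 of 17 host genes passed (58.8%), beside 46.5% of 9472 genes. For shCPSF3 it was 2 of the 14 in the table, beside 26.1%, and for shUL1 1 of 11, beside 10.5%. The host gene of the T7-TIA1 call was not analysed here, and 0% of all genes passed in that comparison.

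Regulators of microexons were looked up in the expression tables. Of 29 listed, 18 were in the tables; Srrm4, Srrm3 and 9 others were not analysed here. The regulators passed no more often than other genes in shSCR and Empty, with 4 of 18 (22.2%) in each beside 44.5% and 46.5% of all genes. It was 5 of 18 (27.8%) for shCPSF3 beside 26.1%, and 4 of 18 for shUL1 beside 10.5%. In shSCR against NI 4 were lower and none higher: Celf2, a splicing factor of brain and muscle, at 83.1 and 76.5 scaled CPM in NI and 24.6 and 34.1 in shSCR (adjusted p = 0.00129, limma), the muscleblind protein Mbnl1 at 310 and 295 and at 130 and 91.7 (adjusted p = 0.000799, limma), Rbfox2 (adjusted p = 0.0151, limma) and Ptbp2 (adjusted p = 0.0256, limma). In Empty, Celf2, Mbnl1, Mbnl2 and Ptbp3 were lower. Celf2 and Mbnl1 thus passed in both, and their libraries did not overlap between day 0 and day 12. In the knockdowns Celf2, Mbnl1, Rbfox2 and Tia1 were higher than in shSCR with either factor, for example Mbnl1 at 157 to 271 with shCPSF3 and 139 to 219 with shUL1, and Tial1 was lower with shCPSF3 (adjusted p = 0.0263, limma). With only the groups compared in the fit, 0 regulators passed with shCPSF3 and 0 with shUL1. With 1 library left out, 2 passed in shSCR against NI without either NI library or shSCR replicate 1, and 9 passed in Empty without NI replicate 1. In the same way 2 passed with shCPSF3 without either shSCR library or shCPSF3#2 replicate 1; with shUL1, 0 passed without either shSCR library, shUL1#1 replicate 1 or shUL1#2 replicate 1, 1 without either NI library, and 2 without shUL1#2 replicate 2. Ptbp1 was at 402 and 423 in NI and 246 and 324 in shSCR and did not pass (adjusted p = 0.140, limma), and in T7-TIA1 against Empty, where 0 of 9472 genes passed, the overexpressed Tia1 itself did not pass (adjusted p = 0.222, limma), so this comparison says nothing of the other regulators. The part of these levels, and of the fibroblast markers and keratins that moved with them, in the microexon changes was not tested.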

How the data were processed

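The authors prepared stranded libraries from polyA RNA, quantified splicing by strand with *vast-tools* on mm10, and deposited, for every event and library, PSI in percent beside a text of coverage score and reads. The deposited expression values are a signal, CPM scaled by library, from reads mapped with *STAR* 2.7.1a per the submitters' processing notes, and the authors removed genes of low level or low variation. Expression was planned as CPM; the values were found to be scaled and the planned test was used. Reads of both forms were taken from the text; PSI from them differed from the deposited PSI by at most 0.0367 points.

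*limma* 3.58.1 in R 4.3.3 was fitted per dataset to log2((inclusion + 1)/(exclusion + 1)) with weights of 1/(counting variance + a floor) and robust variances, on events of every type with at least 10 reads of the rarer form, two-sided, with Benjamini-Hochberg adjustment over all of them. Both shRNAs of a factor were averaged. Expression was tested with *limma* on log2(scaled CPM + 1). The scripts were tested on simulated data; tables were made with Python 3.11.15. Intron sequences were not analysed here.

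In each comparison, the microexons named were the 8 with the largest PSI difference in each direction among those with an adjusted p under 0.05 and at least 10 points, filled up from a rule of 10 points and a gap of 5 between libraries (the study's for day 12 against day 0, used here for every pair of groups), together with some of those of 34 genes known for microexons and, in the 2 tests of differences between effects, the 3 with the smallest p. Others are said to be chosen after their values were seen, and the remaining ones are named to complete a count. The members, gene lists and tests were chosen with earlier results of these data known. The alternatives were the reads added, the minimum of reads, the coverage score, a test on PSI, only the groups compared, a replicate block, and leaving out each library.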

Additional observations from a re-analysis of the deposited data

How the results depend on the processing

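Of 47 results of named microexons followed through the alternatives, none changed its sign, and 29 of the 41 that were calls lost them in an unweighted test of PSI. That test passed 24 in shSCR, 6 in shCPSF3, 5 in shUL1, 0 in Empty and 0 in T7-TIA1, and 12, 4, 3, 0 and 0 of these with at least 10 points. With only the groups compared in the fit it was 30, 8, 6, 10 and 0. A minimum of 1 inclusion and 1 exclusion read passed 7 in shUL1, 9 in Empty and 0 in T7-TIA1, and 0.5 reads added or a score of LOW or better passed 0 in T7-TIA1. The causes were not tested. With 1 library left out, the lone library of its group being assumed to vary like the others, the counts were 20 to 49 (shSCR), 4 to 15 (shCPSF3), 2 to 12 (shUL1), 9 to 11 (Empty), 0 to 1 (T7-TIA1), 0 to 0 (shCPSF3 against shUL1) and 0 to 1 (difference between both day 12 changes).

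The rule of 10 points and a gap of 5 passed 18, 2, 4, 16 and 5 microexons (shSCR, shCPSF3, shUL1, Empty, T7-TIA1) at lengths of 3 to 15 nt, which leaves fewer microexons, and 3.158% of these had a mean PSI between 10 and 90. With at least 15 points it passed 5 in shCPSF3, 6 in shUL1, 25 in Empty and 6 in T7-TIA1, and with no gap 33 in shCPSF3, 30 in shUL1 and 23 in T7-TIA1. With 1 library left out it passed 54 to 68, 11 to 33, 11 to 37, 40 to 56 and 17 to 36.

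For expression, only the groups compared gave 0 regulators in shCPSF3, 0 in shUL1 and 1 in T7-TIA1, and 0 host genes in shCPSF3 and 0 in shUL1. With 1 library left out, 2 to 6, 2 to 6, 0 to 5, 3 to 9 and 0 to 1 regulators and 14 to 22, 0 to 2, 0 to 1 and 4 to 12 host genes (shSCR, shCPSF3, shUL1, Empty) passed.

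The labels do not say whether a replicate number marks a shared culture. Deviations from the group means correlated between same-numbered libraries at r of -0.14 to 0.64 in the knockdown dataset (10 of 15 pairs of groups over 0.1) and -0.02 to 0.21 in the overexpression dataset (1 of 3). With the replicate block, 64 microexons passed in shSCR, 25 in shCPSF3, 14 in shUL1, 24 in Empty, 1 in T7-TIA1 and 0 in the difference between both day 12 changes. In the same fits with the block Pcnt passed in shCPSF3 against shSCR (adjusted p = 0.0140, limma) but not in shUL1 (0.0904), a hint from the data and not from the design. The replicate block gave 7 regulators in shSCR and 9 in shCPSF3, and 7 host genes in shCPSF3 and 2 in shUL1.

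With 2 libraries a group and 137 to 184 reads behind a typical variable microexon, small changes are below what these data resolve, and a microexon that did not pass is not shown to be unchanged.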
